A study of Mus musculus with 36 samples.

Results

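The response of mouse cDC2, labelled FLT3LcDC2, to lipopolysaccharide (LPS) was read by RNA sequencing and is described over all genes of the deposited expected count table. The tested libraries were the 3 whose treatment label is LPS, and they were set against the 3 whose treatment label is Nothing, called untreated here, which makes 6 of the 36 libraries of the series. Both groups carry the replicate numbers 4, 5 and 6, and values below are given in that order. The cells came from mouse bone marrow, and the series calls them induced and the replicates biological. Neither group received PGPC or alum. Strain, genotype, sex, age, LPS dose, time of treatment and any sort or gate are not stated in the labels, and no transgene or deletion is named for either group. A second LPS comparison in the same cells set 3 libraries given LPS together with PGPC, an oxidized phospholipid, against 2 given PGPC alone, with no library in common with the first. The last comparison set the response in FLT3LcDC2 against that of FLT3LcDC1, which had 3 LPS and 3 untreated libraries, numbered 1 to 3.

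LPS is a cell wall component of Gram-negative bacteria. CD14 and MD-2 pass it to the receptor TLR4, which signals through the adaptor MyD88 at the cell surface, toward NF-kB, AP-1 and inflammatory cytokine genes, and through the adaptor TRIF from endosomes, toward IRF3 and interferon-beta, which in turn induces interferon-stimulated genes. cDC2 are the conventional dendritic cells best known for presenting antigen on MHC class II to CD4 T cells. On sensing LPS, dendritic cells typically raise costimulatory molecules and the chemokine receptor CCR7, which guides them to lymph nodes, and take up less antigen.

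Libraries held 980502 to 1892082 counts with LPS, against 243870 to 3887958 untreated. Untreated replicate 6 was the shallow one, with 243870 counts in 9687 genes, so that 3 counts stood for 11.2 CPM (counts scaled to TMM-adjusted library totals) there and for 0.775 to 2.93 CPM in the other 5 libraries. Spearman's rho between libraries was 0.837 to 0.917 within the LPS group, 0.882 to 0.961 within the untreated group and 0.738 to 0.842 between the groups. Counts assigned to the ribosomal RNA locus took 21.3 to 26.4% of each library with LPS, against 28.6 to 37.3% untreated. Within the LPS group, replicates 4 and 5 differed along transcript length. Relative to the other LPS libraries, replicate 4 was lower for genes with transcripts under 1000 bases (median log2 difference -1.09, 322 genes) and higher for those of at least 7000 bases (0.52, 721 genes), while replicate 5 went the other way (1.18 and -0.55). Without replicate 4, 985 genes were called against untreated cells by the edgeR test described below, and without replicate 5, 830, against 1062 with all 3.

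The label was checked against a list of 18 cDC2 genes and 8 lists of other cell types. Sirpa, a surface receptor of cDC2 that macrophages also carry, had 3924, 982 and 1442 CPM with LPS, against 1192, 1264 and 838 CPM untreated. The integrin gene Itgam had 377, 102 and 155 CPM with LPS, against 149, 163 and 109 CPM untreated. The 18 cDC2 genes summed to 1984 to 5162 CPM with LPS, against 1594 to 2250 CPM untreated. In FLT3LcDC1 they summed to 2519 to 2630 CPM with LPS, against 1329 to 1623 CPM untreated. Of the list, Cd209a, Clec10a, Mgl2 and Irf4 were at or near 0. The lectin gene Cd209a had no count with LPS and at most 0.268 CPM untreated. Clec10a had 0, 0.539 and 0 CPM with LPS, against 4.55, 2.32 and 0 CPM untreated. Mgl2 had 0, 0 and 1.96 CPM with LPS, against 0.536, 0.258 and 0 CPM untreated. Irf4, the cDC2 transcription factor, had 2.05, 7.004 and 4.89 CPM with LPS, against 2.41, 5.42 and 0 CPM untreated. Some genes typical of monocytes and macrophages were high. The growth factor receptor gene Csf1r had 1414, 388 and 626 CPM with LPS, against 1804, 1914 and 1309.6 CPM untreated. Lyz2 (lysozyme) had 495, 1460.5 and 1138 CPM with LPS, against 4056, 3458 and 3405 CPM untreated. Apoe had 4029, 1291 and 661 CPM with LPS, against 2932, 2418 and 3555 CPM untreated. The summed level of the 18 monocyte or macrophage genes was 3951 to 10021 CPM with LPS, against 9833 to 11053 CPM untreated, and 2418 to 6350 CPM in untreated FLT3LcDC1. Csf1r, Lyz2 and Apoe made up most of the sum in untreated FLT3LcDC2. The cDC1 genes did separate the labels, with 670 to 731 CPM in untreated FLT3LcDC2, against 1646 to 2203 CPM in untreated FLT3LcDC1. The data therefore go in part with the label and in part against it, and the cells are called by it here only as a name. By the edgeR test, of the monocyte or macrophage genes 2 rose with LPS (Fcgr1 and Cd14) and 3 fell, among them Ccr2 and Lyz2, and Chil3 had no count in either group. How far a changing share of such cells entered the LPS results was not tested, and in bulk RNA fewer cells of a type and less RNA per cell cannot be told apart.

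Sums over the marker genes of other cell types differed between the groups in several lists. The cDC1 genes summed to 273 to 393 CPM with LPS, against 670 to 731 CPM untreated. In FLT3LcDC1 with LPS they summed to 747 to 1086.5 CPM. Of 16 tested in FLT3LcDC2, Btla rose and Cd36 fell. Most of the fall in the sum was Cd36, whose levels are given below. Neutrophil or granulocyte precursor genes summed to 94.8 to 104 CPM with LPS, against 18.7 to 40.5 CPM untreated. Of the 9 tested, Lcn2 rose, and its call was lost without untreated replicate 4, adjusted p = 0.0544, while S100a9, Elane, Ltf and Ly6g had no count in either group. Erythroid genes summed to 3.58 to 16.6 CPM with LPS, against 0.268 to 11.2 CPM untreated. What part such cells had in the LPS results was not tested. T or NK cell genes summed to at most 0.978 CPM with LPS, against at most 1.03 CPM untreated. B cell genes summed to 53.8 to 71.7 CPM with LPS, against 41.3 to 67.4 CPM untreated, with no count for Cd79a and Pax5 in either group. Plasmacytoid dendritic cell genes summed to 2977 to 4645 CPM with LPS, against 105 to 334 CPM untreated. Most of the sum with LPS was Irf7, whose levels are given below. The called members were Irf7, Bst2 and Spib, the first 2 also in interferon lists, while Siglech, which defines those cells, had no count with LPS. Spib was not called without LPS replicate 4 or untreated replicates 4, 5 and 6, adjusted p from 0.056 to 0.0755. Mast cell or basophil genes summed to 217 to 258 CPM with LPS, against 7.77 to 14.2 CPM untreated. That sum was nearly all Hdc, which makes histamine, and the growth factor receptor gene Kit. Hdc had 217, 219 and 175 CPM with LPS, against 0, 1.81 and 3.74 CPM untreated. Kit had 41.0, 38.8 and 35.2 CPM with LPS, against 7.50, 12.4 and 7.48 CPM untreated (call lost without untreated replicate 4, adjusted p = 0.0886). The defining granule and receptor genes Mcpt8, Cpa3, Fcer1a and Ms4a2 had no count in either group.

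Across the table, more genes were called higher with LPS than lower. edgeR's quasi-likelihood test with Benjamini-Hochberg adjustment called 1062 of 12463 tested genes at an adjusted p below 0.05, which is 8.52%: 725 were higher with LPS (5.82%) and 337 lower (2.7%). The libraries of the groups did not overlap for 3371 genes (27.0%), a more even split of 1819 higher (14.6%) and 1552 lower (12.5%). Before adjustment 2409 genes (19.3%) passed 0.05. The median log2 fold change over all tested genes was 0.03. List counts below are to be read beside the shares of all tested genes, 5.82% higher and 2.7% lower. Log2 fold changes are LPS over untreated, with their standard error after ±. Every adjusted p below is from this test over all 12463 genes, unless another is named. Leaving out any 1 of the 6 libraries left 657 to 985 calls; the lowest number came without untreated replicate 4 and the highest without LPS replicate 4. When all 36 libraries of the series were fitted together, 232 genes were called, 159 higher and 73 lower. Among them were 9 of the interferon-stimulated genes, 5 of the cytokine genes and 1 of the NF-kB genes described below. That fit also redid the filter, which left 11482 genes, and the scaling. Of the process lists below, 15 had 0 members called lower by edgeR; of their 342 members, some of which are in several lists, 8 were lower at an unadjusted p below 0.05, and DESeq2 called 2 lower.

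**Figure D1:**
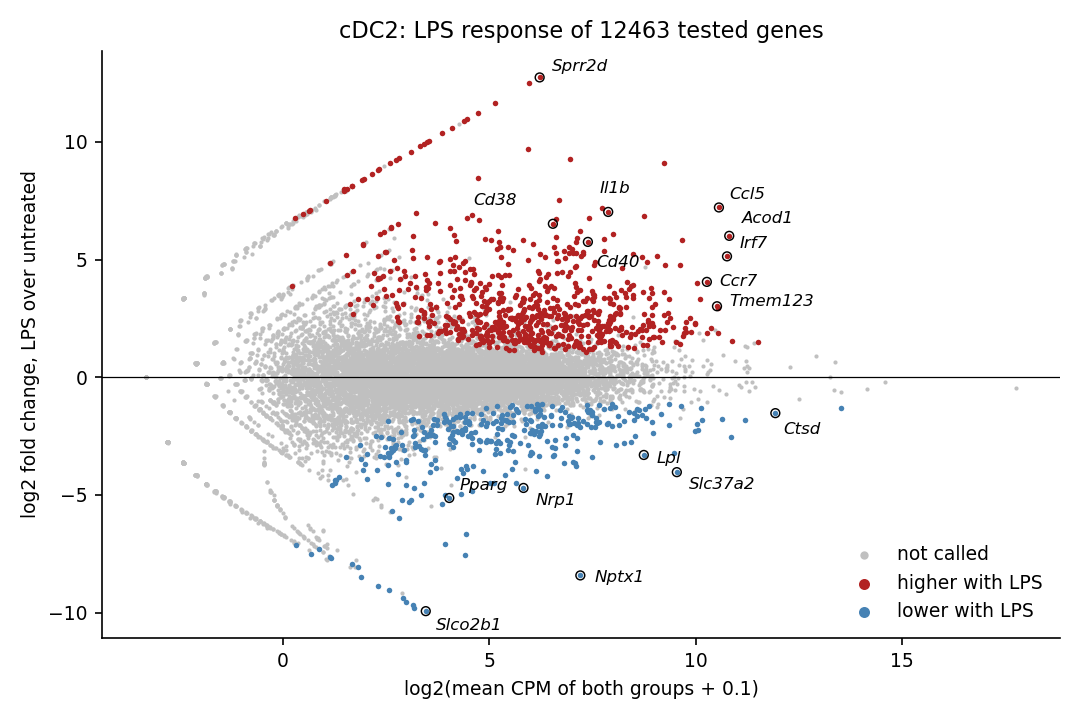
Log2 fold change (LPS over untreated) of the 12463 tested genes in cDC2 against log2 of the mean CPM of both groups plus 0.1; red points were called higher with LPS (725), blue points lower (337) and grey points were not called. The slanting lines of points at the outer edges are genes without counts in 1 of the groups, whose fitted fold change is no measured size; circles mark genes named in the text.

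Some genes that sense LPS rose, and most of those that feed back on its signal did. Of 23 tested genes for LPS sensing and the first steps of TLR4 signalling, 7 rose (30.4%, against 5.82% of all tested genes) and 0 fell (median log2 fold change 1.15), and 3 rose without untreated replicate 4. Ikbkb, a kinase that releases NF-kB, rose by 1.85 ± 0.38 (adjusted p = 0.00173). Irak3, a brake on the pathway, rose by 2.60 ± 0.56 (adjusted p = 0.00269). Myd88 had 56.3, 108 and 103 CPM with LPS, against 24.1, 36.2 and 26.2 CPM untreated (1.60 ± 0.37, adjusted p = 0.00514). Cd14 had 1262, 579 and 306 CPM with LPS, against 204, 217 and 112 CPM untreated (1.99 ± 0.57, adjusted p = 0.0276). The receptor gene itself, Tlr4, lay lower in all 3 LPS libraries, with 29.2, 9.16 and 31.3 CPM with LPS, against 63.2, 46.2 and 67.4 CPM untreated, but was not called (-1.34 ± 0.59, adjusted p = 0.192). Leaving out 1 library ended the calls of Myd88 (without untreated replicate 4, adjusted p = 0.065) and Cd14 (without LPS replicate 4 or untreated replicates 4, 5 and 6, adjusted p from 0.0682 to 0.193).

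Of 22 genes for NF-kB subunits and feedback, 19 rose and 0 fell (median 2.60), and all 22 had LPS libraries above every untreated one, against 14.6% of all tested genes. Nfkbia, which encodes the inhibitor IkB-alpha, had 358, 928 and 682 CPM with LPS, against 65.1, 84.2 and 33.7 CPM untreated. Its groups lay far apart, at 3.37 ± 0.47 (adjusted p = 3.63e-05). Traf1, a signalling adaptor that NF-kB induces, had 943, 493 and 401 CPM with LPS, against 34.0, 47.0 and 26.2 CPM untreated (4.05 ± 0.57, adjusted p = 4.43e-05); replicate 4 was the highest of the LPS libraries. Nfkbiz rose by 4.30 ± 0.65, the inhibitor of apoptosis gene Birc3 by 2.93 ± 0.45, and the subunit genes Relb and Rel by 2.98 ± 0.49 and 2.44 ± 0.40, with adjusted p from 8.55e-05 to 0.000222. Tnfaip3, which encodes the deubiquitinase A20, rose by 3.88 ± 0.92 (adjusted p = 0.00671), a call lost without LPS replicate 4 (adjusted p = 0.071), where its level was highest. The 3 members without a call were Nfkb1, Tnip3 and Zc3h12c.

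Among cytokine genes, Il1a, Il1b, Il1rn, Il6, Tnf, Il12b, Ebi3 and Il15 rose: 8 of 18 tested were called higher and 0 fell (median 3.60, or 3.40 with the member that had counts in only 1 group at its bound). Il1b, which encodes the precursor of interleukin-1 beta (chr2:129364570-129371139, minus strand, GRCm38), had 273, 673 and 452 CPM with LPS, against 2.14, 4.91 and 3.74 CPM untreated. All LPS libraries were far above the untreated ones, and the log2 fold change was 7.03 ± 0.90 (adjusted p = 1.98e-05). Il1a was close to absent untreated, with 0, 0.775 and 0 CPM, and had 272, 240.3 and 226 CPM with LPS, 657-fold higher (95% counting interval 224 to 3188). Il6 had 29.7, 76.5 and 50.9 CPM with LPS, against 0, 0.258 and 0 CPM untreated, 411-fold higher (95% counting interval 73.0 to 16281), and its call stood (adjusted p = 4.5e-05). Il1rn, the natural antagonist of the interleukin-1 receptor, had 1202, 782 and 558 CPM with LPS, against 6.70, 8.78 and 3.74 CPM untreated (6.87 ± 1.05, adjusted p = 0.000111).

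Tnf was already detectable untreated, with 114, 209 and 135 CPM with LPS, against 12.6, 24.3 and 7.48 CPM untreated, and rose by 3.22 ± 0.52 (adjusted p = 0.000163). Ebi3, a subunit shared by interleukin-27 and interleukin-35, rose by 2.84 ± 0.54 (adjusted p = 0.000908). Il12b, the shared subunit of interleukin-12 and interleukin-23, stayed at low levels, with 9.73, 13.5 and 4.89 CPM with LPS, against 0.268, 0.775 and 0 CPM untreated (4.20 ± 1.03, adjusted p = 0.00825). Il15 had 14.8, 37.7 and 18.6 CPM with LPS, against 1.34, 5.42 and 0 CPM untreated (2.98 ± 0.71, adjusted p = 0.00659); both calls were lost without untreated replicate 4 (adjusted p = 0.0976 and 0.0797). Il23a had no count in either group. Il12a, Il18 and the anti-inflammatory Il10 were not called. Their LPS libraries all lay above the untreated ones, but untreated replicate 6, where 1 count stood for 3.74 CPM, had no count for them. Il12a had 1.02, 5.39 and 3.91 CPM with LPS, against 0, 0 and 0 CPM untreated (adjusted p = 0.0638). Il18 had 12.8, 20.5 and 8.80 CPM with LPS, against 0.536, 1.03 and 0 CPM untreated (adjusted p = 0.0527). For Il10 the levels were 8.19, 7.54 and 10.8 CPM with LPS, against 1.07, 0.517 and 0 CPM untreated (adjusted p = 0.153).

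Genes of the inflammasome, the complex that activates caspase-1 and through it interleukin-1 beta and the pore protein gasdermin D, rose in part: 7 of 20 tested rose and 0 fell (median 0.90). Nlrp3, the sensor, had 438, 237 and 282 CPM with LPS, against 49.6, 50.9 and 26.2 CPM untreated (2.85 ± 0.56, adjusted p = 0.00115). Gsdmd, the pore gene, had 352, 230.0 and 168 CPM with LPS, against 57.9, 43.1 and 22.5 CPM untreated (2.53 ± 0.51, adjusted p = 0.00151), and neither gene's groups overlapped. Casp4, the mouse caspase-11 gene, whose product binds LPS inside cells, rose by 3.44 ± 0.74 (adjusted p = 0.00289). Casp1 had 13.3, 44.7 and 30.3 CPM with LPS, against 5.09, 6.71 and 3.74 CPM untreated (2.39 ± 0.65, adjusted p = 0.0183), a call that was lost without LPS replicate 5 or untreated replicates 4, 5 and 6, adjusted p from 0.056 to 0.121. The other members that rose were Il1b, Nlrc5 and Mefv, of which Mefv lost its call without LPS replicate 4 or untreated replicate 4, adjusted p from 0.0543 to 0.0844.

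Of 18 tested chemokine ligands 11 rose and 0 fell (median 4.30, or 3.77 with the 2 members that had counts in only 1 group at their bound), and 7 rose without untreated replicate 4. Ccl5, a chemokine for T cells and monocytes (chr11:83525778-83530518, minus strand, GRCm38), had 2088, 4275 and 2625 CPM with LPS, against 18.2, 24.5 and 15.0 CPM untreated. It had the smallest adjusted p of the table (7.22 ± 0.53, adjusted p = 7.59e-09). Ccl22, which draws regulatory and Th2 T cells through CCR4, had 1070.1, 1235 and 814 CPM with LPS, against 31.1, 32.3 and 22.5 CPM untreated (5.13 ± 0.55, adjusted p = 2.45e-06). Cxcl10, an interferon-induced ligand of CXCR3, had 349, 719 and 436 CPM with LPS, against 1.88, 15.0 and 0 CPM untreated, so untreated replicate 5 held some and the other untreated libraries next to none (6.08 ± 0.83, adjusted p = 4.43e-05). Its relative Cxcl11 had no untreated count and 9.73, 38.8 and 20.5 CPM with LPS, at least 60.8-fold higher. Ccl4 and Ccl3 rose by 5.86 ± 0.88 and 5.52 ± 0.89 (adjusted p = 8.32e-05 and 0.000169), with reads that near-identical relatives may share, and Cxcl16 by 2.34 ± 0.42. Ccl17, a ligand of CCR4 like Ccl22, had 0, 1.62 and 0.978 CPM with LPS, against 0, 0 and 0 CPM untreated and was not called (adjusted p = 0.235).

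Of 14 tested chemokine receptors 2 rose and 2 fell (median -0.05, or 0.00 with 2 members at their bound). Ccr7, the lymph node homing receptor, had 4496, 1469.7 and 1007 CPM with LPS, against 151, 149 and 116 CPM untreated, and each LPS library was above each untreated one (4.06 ± 0.59, adjusted p = 5.97e-05). Ccrl2, a receptor that binds the chemoattractant chemerin without signalling, rose by 4.28 ± 0.90 (adjusted p = 0.0027). Ccr2, the receptor that brings monocytes out of bone marrow, had 6.66, 2.15 and 0 CPM with LPS, against 45.3, 49.6 and 67.4 CPM untreated. It fell by 4.0 on the log2 scale, with a standard error of 0.65 (adjusted p = 0.000189). Cx3cr1, the fractalkine receptor, fell as well (-1.82 ± 0.55, adjusted p = 0.0368), but its call was lost without LPS replicates 4, 5 and 6 or untreated replicates 4 and 5, adjusted p from 0.0599 to 0.134.

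Costimulatory and coinhibitory surface genes rose together, 11 of 17 tested, while 1 fell (median 2.87). Cd40, the receptor for T cell help, had 400.4, 348 and 237 CPM with LPS, against 1.34, 11.4 and 3.74 CPM untreated (5.75 ± 0.66, adjusted p = 5.84e-06). Cd86, a ligand of CD28 on T cells, had 95.2, 74.9 and 71.4 CPM with LPS, against 3.21, 5.42 and 0 CPM untreated (4.36 ± 0.57, adjusted p = 1.98e-05). Its partner Cd80 had 14.3, 6.46 and 7.83 CPM with LPS, against 0, 0.517 and 0 CPM untreated. Cd274, which encodes the inhibitory ligand PD-L1, had 608, 861 and 1218 CPM with LPS, against 39.4, 104 and 44.9 CPM untreated, with no overlap between the groups (3.80 ± 0.50, adjusted p = 1.98e-05). Activating and inhibitory genes were thus both among those that rose. Cd200, another inhibitory ligand, rose by 4.28 ± 0.58, the adhesion gene Icam1 by 3.38 ± 0.53, Slamf7 by 2.87 ± 0.51 and Cd83, which steadies MHC class II at the surface, by 2.02 ± 0.40, with adjusted p from 2.64e-05 to 0.00142. The member that fell was the inhibitory receptor gene Vsir (-1.21 ± 0.38, adjusted p = 0.0478). That call was lost without any 1 of the 6 libraries, adjusted p from 0.0817 to 0.133.

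Among 22 genes of migration and cytoskeleton in maturing dendritic cells, 12 rose and 1 fell (median 1.59). Fscn1, the actin-bundling protein fascin, had 3366, 2060.1 and 2488 CPM with LPS, against 321, 301 and 400.4 CPM untreated (2.96 ± 0.45, adjusted p = 8.8e-05). Tmem123, a surface glycoprotein also called porimin, had 4078, 1768 and 1948 CPM with LPS, against 327, 270.4 and 367 CPM untreated (3.02 ± 0.37, adjusted p = 8.69e-06), and Marcksl1, an actin regulator, rose by 3.24 ± 0.44. Net1, a RhoA exchange factor, had 94.2, 158 and 131 CPM with LPS, against 23.8, 23.5 and 11.2 CPM untreated (2.60 ± 0.42, adjusted p = 0.000163). The tetraspanin gene Cd9 had 13.8, 26.9 and 26.4 CPM with LPS, against 145, 119.6 and 109 CPM untreated, and fell by 2.49 on the log2 scale, with a standard error of 0.47 (adjusted p = 0.000887).

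**Figure D2:**
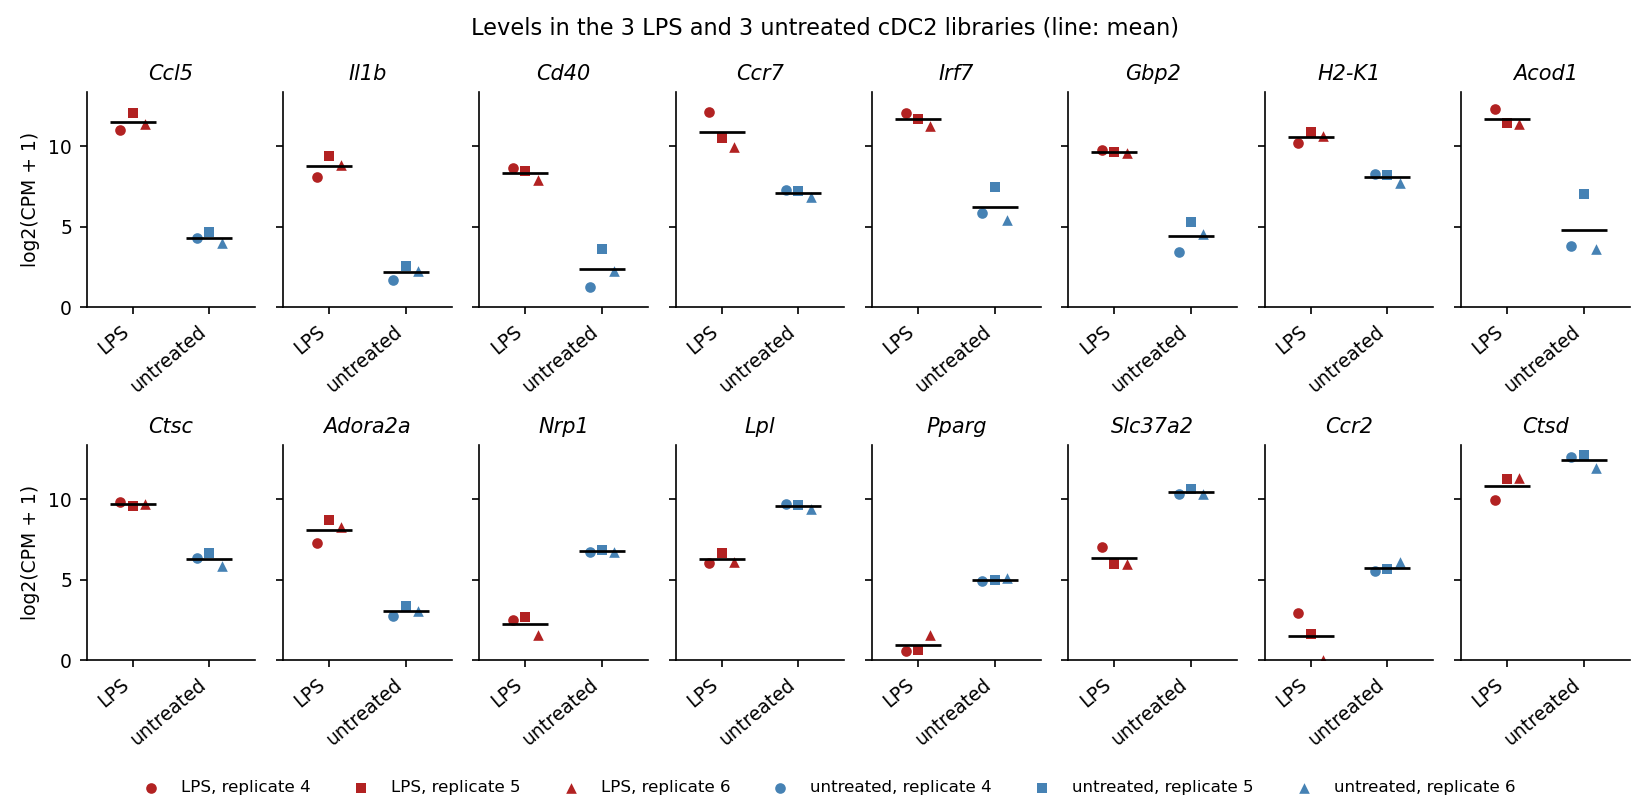
log2(CPM + 1) of 16 genes in each LPS library (red, left) and untreated library (blue, right) of cDC2, with the replicate number as the symbol and the mean as a line. For each of these genes every LPS library lay on the same side of every untreated library; the top row and Ctsc and Adora2a were higher with LPS and the other 6 were lower.

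Interferon-stimulated genes formed the largest group that rose, 37 of 43 tested (86.0%, against 5.82% of all tested genes) with 0 lower (median 3.78). All 43 had every LPS library above every untreated one, against 14.6% of all tested genes. Irf7, the transcription factor that amplifies interferon output, had 4342, 3301 and 2441 CPM with LPS, against 55.5, 179 and 41.2 CPM untreated (5.14 ± 0.67, adjusted p = 1.98e-05). The guanylate-binding protein gene Gbp2, part of a family that attacks vacuoles of intracellular microbes, had 865, 790.3 and 772 CPM with LPS, against 9.64, 38.2 and 22.5 CPM untreated. Its LPS libraries stood close together, and the difference was 5.10 ± 0.66 (adjusted p = 1.98e-05). Gbp4, of the same family, had 303, 140.1 and 209 CPM with LPS, against 2.14, 8.52 and 3.74 CPM untreated (5.39 ± 0.65, adjusted p = 8.69e-06). Ifit1, which binds viral RNA caps, had 505, 636 and 580.1 CPM with LPS, against 3.75, 47.8 and 11.2 CPM untreated (4.65 ± 0.97, adjusted p = 0.00232). Ifit2, of the same family as Ifit1, had 1399, 1139 and 1020.4 CPM with LPS, against 13.4, 99.4 and 3.74 CPM untreated (4.78 ± 0.67, adjusted p = 4.13e-05). Isg15, a ubiquitin-like modifier, had 88.1, 399 and 180.0 CPM with LPS, against 2.68, 10.1 and 7.48 CPM untreated (5.09 ± 0.76, adjusted p = 7.01e-05). The RNA sensor gene Ifih1 (MDA5) rose by 3.24 ± 0.48 (adjusted p = 6.44e-05). Untreated replicate 5 was the highest untreated library for all 43 genes, against 36.1% of all tested genes. The 43 genes together reached 13970.0, 15787 and 15631 CPM with LPS, against 699.5, 2189 and 471 CPM untreated. This library thus held well above either other untreated library and still far less than any LPS library. Without untreated replicate 5, 36 genes of the list were called higher, and without untreated replicate 4, 29.

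The promoters of many interferon-stimulated genes hold the interferon response element, and 4 stretches with its letters are shown for genes that rose here. The windows are RefSeq's 250 bases before to 50 after a gene's start on GRCm38.p6, of which 9428 tested genes and 564 of the 725 genes higher with LPS had one. GAAANNGAAA was searched on both strands, and a gene counted if any of its windows held it. Among genes with a window, 15.1% of those higher with LPS (85 of 564) and 1.92% of those lower (5 of 261) did. The share was 4.16% of all tested genes with a window (392 of 9428). Counted by window instead of by gene, it was 3.44% of all 32851 windows. Of the interferon-stimulated genes called here 20 of 30 with a window held it. In the 4 stretches below, capitals mark the match, or run of overlapping matches, on either strand, and each reads along its gene. The stretch of Ifit1 is chr19:34640745-34640853, plus strand, that of Isg15 chr4:156200835-156200936, minus strand, that of Gbp2 chr3:142620564-142620653, plus strand and that of Cxcl10 chr5:92349053-92349139, minus strand.
Ifit1: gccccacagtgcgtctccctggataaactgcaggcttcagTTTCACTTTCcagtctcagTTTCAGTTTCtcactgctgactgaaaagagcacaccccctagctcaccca
Isg15: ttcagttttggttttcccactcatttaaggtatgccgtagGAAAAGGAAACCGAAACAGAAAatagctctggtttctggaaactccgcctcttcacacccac
Gbp2: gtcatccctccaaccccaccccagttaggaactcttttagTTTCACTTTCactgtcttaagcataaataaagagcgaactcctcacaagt
Cxcl10: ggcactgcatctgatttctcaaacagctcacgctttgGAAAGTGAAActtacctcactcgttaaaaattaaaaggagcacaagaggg
The matches began 104 and 85 bases before the start in Ifit1, 59 before it in Gbp2 and 213 before it in Cxcl10, and Isg15 held 3 overlapping ones from 78 bases before it.

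A kappa B letter pattern, GGGANNTTCC, was rarer. Among genes with a window, 4.26% of those higher with LPS (24 of 564), 1.15% of those lower (3 of 261) and 1.81% of all tested ones held it. So did 3 of the 17 called NF-kB and feedback genes with a window. It is shown for the feedback gene Nfkbia (chr12:55492648-55492716, minus strand), for Cxcl10 (chr5:92348999-92349088, minus strand), whose window held both patterns, and for Il6 (chr5:30013030-30013113, plus strand), in capitals.
Nfkbia: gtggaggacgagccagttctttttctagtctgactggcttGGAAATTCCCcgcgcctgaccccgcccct
Cxcl10: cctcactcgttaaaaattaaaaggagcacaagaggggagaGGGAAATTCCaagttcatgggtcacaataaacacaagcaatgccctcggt
Il6: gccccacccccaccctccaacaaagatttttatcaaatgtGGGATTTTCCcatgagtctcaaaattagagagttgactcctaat
A match is a run of letters and not a shown binding site; no binding was measured.

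Of 23 interferon regulatory, STAT and SOCS factors, 11 rose and 0 fell (median 1.55). Socs1 and Socs3, which damp cytokine receptors, rose by 4.75 ± 0.68 and 4.43 ± 0.78, and Stat4, which signals below the interleukin-12 receptor, by 4.82 ± 0.77, with adjusted p from 4.49e-05 to 0.000459. Irf1 had 75.8, 125 and 142 CPM with LPS, against 24.9, 23.2 and 3.74 CPM untreated (2.51 ± 0.45, adjusted p = 0.00045). Irf4 and Irf8, the factors that mark cDC2 and cDC1, overlapped between the groups: Irf8 had 104, 83.0 and 65.5 CPM with LPS, against 61.4, 73.3 and 105 CPM untreated (adjusted p = 0.936). Of 29 immediate early and AP-1 factors 8 rose and 2 fell (median 1.34); the number that rose was 8 without LPS replicate 4 and 3 to 5 without any other 1 library. Batf had 27.6, 44.7 and 34.2 CPM with LPS, against 2.41, 1.81 and 0 CPM untreated (4.17 ± 0.61, adjusted p = 5.98e-05) and Junb rose by 2.02 ± 0.41. Fos had 37.4, 106 and 55.8 CPM with LPS, against 256, 296 and 228 CPM untreated (-1.97 ± 0.46, adjusted p = 0.00585).

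**Figure D3:**
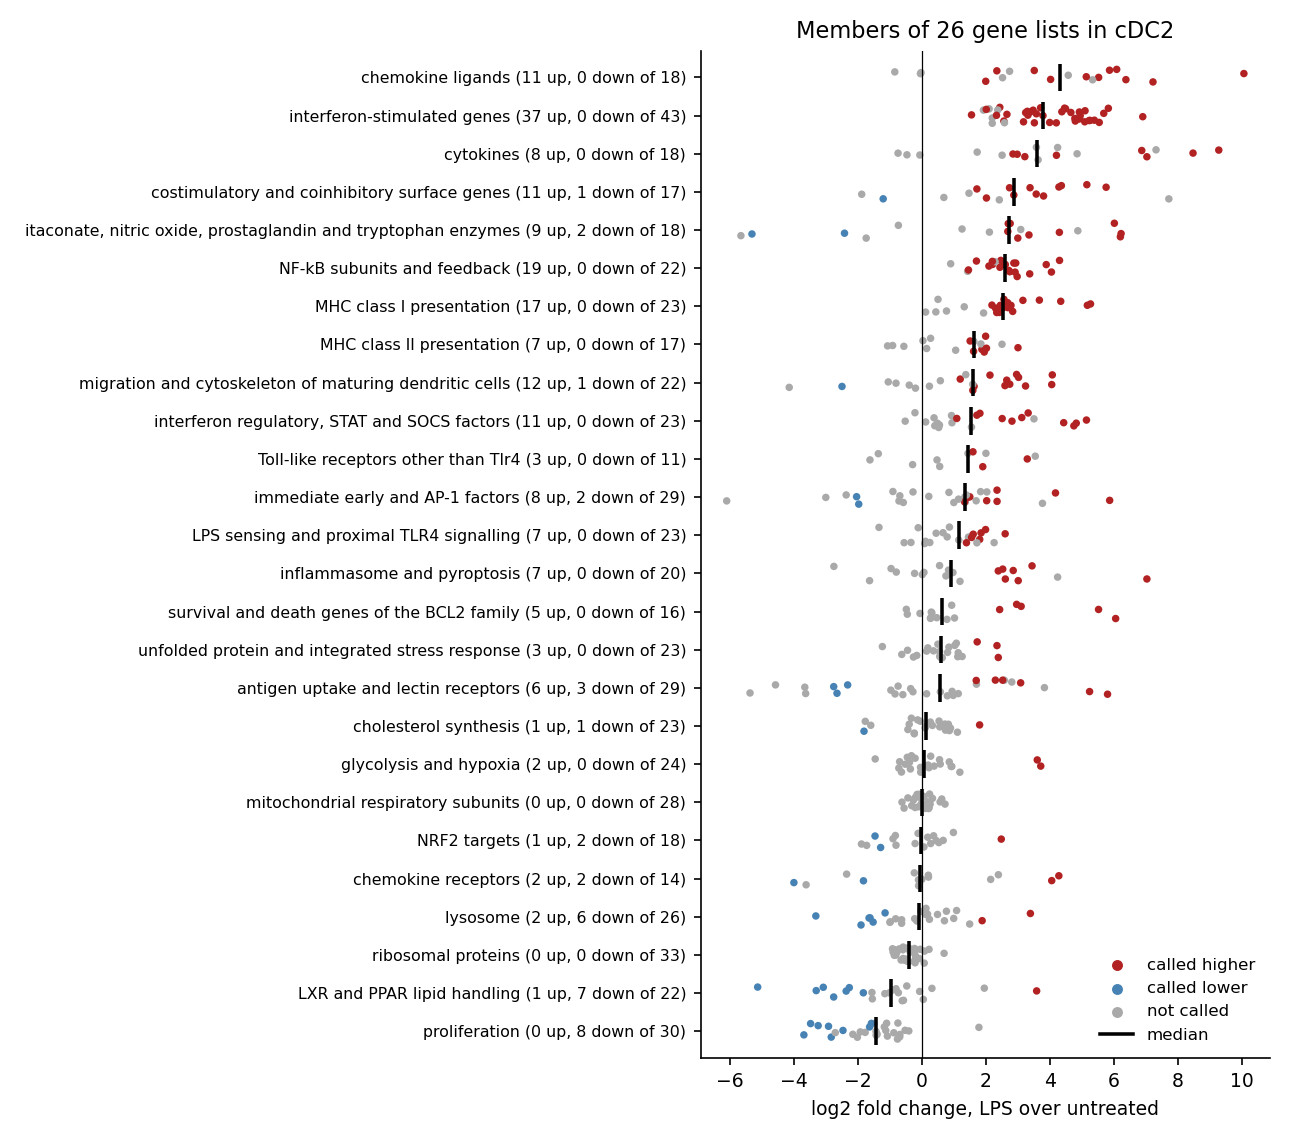
Log2 fold changes (LPS over untreated, cDC2) of the tested members of 26 process lists, ordered by their median (black line), with members called higher in red, called lower in blue and not called in grey. The fitted median was 4.30 for chemokine ligands, where 2 members had counts in only 1 group, and 3.78 for interferon-stimulated genes. With those 2 members at their bound the chemokine median was 3.77, so the order of these lists depends on values that were not measured. Proliferation genes had a median of -1.43, and all tested genes 0.03.

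Genes of MHC class I presentation rose together, 17 of 23 tested with 0 lower (median 2.54). The classical class I gene H2-K1 had 1179.7, 1929 and 1608 CPM with LPS, against 306, 296 and 206 CPM untreated, and the groups did not overlap (2.54 ± 0.38, adjusted p = 6.63e-05). H2-Q7, a class Ib gene whose reads near-identical H2-Q copies may share, had 196, 348 and 318 CPM with LPS, against 5.63, 9.30 and 11.2 CPM untreated (5.17 ± 0.60, adjusted p = 5.9e-06). The immunoproteasome subunit gene Psmb9 had 73.7, 138 and 85.1 CPM with LPS, against 11.8, 21.4 and 3.74 CPM untreated, and Psmb8 had 348, 727 and 421 CPM with LPS, against 84.9, 87.8 and 56.1 CPM untreated. They rose by 2.78 ± 0.42 and 2.68 ± 0.44 (adjusted p = 8.55e-05 and 0.000224). Tap1, a subunit of the peptide transporter into the endoplasmic reticulum, rose by 2.42 ± 0.46 and the proteasome activator gene Psme1 by 2.56 ± 0.41. Of 17 MHC class II genes 7 rose and 0 fell (median 1.62), with 4 and 3 called higher without untreated replicates 5 and 6. Ciita, the master activator of class II genes, had 407, 124 and 138 CPM with LPS, against 30.5, 41.1 and 0 CPM untreated (3.00 ± 0.59, adjusted p = 0.00118). H2-Ab1 had 3390.1, 2256 and 1407 CPM with LPS, against 694, 554 and 677 CPM untreated (1.87 ± 0.49, adjusted p = 0.0139). Cd74, the invariant chain, had 2043, 5702 and 5130.4 CPM with LPS, against 1620.3, 1626 and 1279.7 CPM untreated (1.51 ± 0.37, adjusted p = 0.00799). Leaving out 1 library ended the calls of H2-Ab1 (without LPS replicate 4 or untreated replicates 4, 5 and 6, adjusted p from 0.0514 to 0.0749) and Cd74 (without LPS replicates 5 and 6 or untreated replicate 6, adjusted p from 0.0502 to 0.0514).

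Receptors for uptake changed in both directions: of 29 tested 6 rose and 3 fell (median 0.58). Clec4e, the lectin Mincle that binds mycobacterial cord factor, had 380.4, 817 and 893 CPM with LPS, against 7.23, 33.1 and 11.2 CPM untreated (5.24 ± 1.02, adjusted p = 0.00121). The scavenger receptor gene Marco had 42.0, 36.1 and 29.4 CPM with LPS, against 0.268, 1.03 and 0 CPM untreated (5.80 ± 1.20, adjusted p = 0.00291). The inhibitory Fc receptor gene Fcgr2b and the high-affinity Fcgr1 rose by 3.09 ± 0.63 and 2.52 ± 0.59 (adjusted p = 0.00182 and 0.00563). Clec7a, the beta-glucan receptor dectin-1, had 7.17, 7.54 and 10.8 CPM with LPS, against 57.3, 44.9 and 56.1 CPM untreated. The groups were far apart (-2.65 ± 0.43, adjusted p = 0.000193), as for the scavenger receptor gene Cd36, with 25.6, 61.4 and 71.4 CPM with LPS, against 366, 316 and 382 CPM untreated (-2.75 ± 0.53, adjusted p = 0.000961). Mrc1, the mannose receptor, had 3.58, 0 and 0 CPM with LPS, against 27.3, 39.3 and 29.9 CPM untreated and was not called (adjusted p = 0.0651). Of 11 tested genes for other Toll-like receptors, their chaperone Unc93b1 counted among them, 3 rose (Tlr1, Tlr2 and Tlr9) and 0 fell (median 1.44). Tlr1, a partner of TLR2 in sensing lipopeptides, had 159, 178 and 206 CPM with LPS, against 18.5, 20.1 and 15.0 CPM untreated (3.29 ± 0.54, adjusted p = 0.000204). Leaving out 1 library ended the calls of Tlr2 (without LPS replicate 4 or untreated replicate 4, adjusted p from 0.0755 to 0.0938) and Tlr9 (without LPS replicates 4 and 5 or untreated replicates 5 and 6, adjusted p from 0.0727 to 0.129).

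Of 18 tested enzyme genes of itaconate, nitric oxide, prostaglandin and tryptophan metabolism 9 rose and 2 fell (median 2.73). Acod1, which makes itaconate from cis-aconitate, had 5155, 2764 and 2686 CPM with LPS, against 13.1, 128 and 11.2 CPM untreated (6.01 ± 0.96, adjusted p = 0.000169); untreated replicate 5 was again the highest untreated library. Sod2, the mitochondrial superoxide dismutase, had 842, 1406 and 1306 CPM with LPS, against 104, 145 and 97.3 CPM untreated (3.34 ± 0.35, adjusted p = 2.45e-06). Ass1, which rebuilds arginine from citrulline, rose by 2.76 ± 0.45 (adjusted p = 0.000209). Nos2, the inducible nitric oxide synthase, had 179, 20.5 and 19.6 CPM with LPS, against 0, 2.07 and 0 CPM untreated, so that replicate 4 carried most of it (6.20 ± 1.33, adjusted p = 0.00451; adjusted p = 0.0542 without that library). In the prostaglandin pathway Ptges, the inducible prostaglandin E synthase, had 332, 247 and 296 CPM with LPS, against 0.804, 7.75 and 0 CPM untreated (6.22 ± 0.81, adjusted p = 1.98e-05). The cyclooxygenase gene Ptgs1 had 1.02, 0 and 0 CPM with LPS, against 22.8, 14.2 and 11.2 CPM untreated, 43.9-fold lower (95% counting interval 11.9 to 366), and it was called (adjusted p = 0.000302). Alox5ap, which helps 5-lipoxygenase start leukotriene synthesis, had 12.3, 33.9 and 17.6 CPM with LPS, against 130.5, 109 and 101 CPM untreated (-2.42 ± 0.41, adjusted p = 0.000287).

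Of 24 genes of glycolysis and hypoxia 2 rose (8.33%, against 5.82% of all tested genes) and 0 fell (median 0.08). These were Pfkfb3, which makes the activator of phosphofructokinase and had 1600.1, 353 and 788 CPM with LPS, against 86.3, 90.4 and 41.2 CPM untreated (3.60 ± 0.49, adjusted p = 2.97e-05), and the lysosomal transporter gene Slc2a6. The level of Slc2a6 was 350.2, 243 and 233 CPM with LPS, against 19.0, 27.9 and 11.2 CPM untreated (3.71 ± 0.60, adjusted p = 0.000168). Of 28 nuclear genes for mitochondrial respiratory subunits edgeR called 0 (median 0.00), with 0 below 0.05 before adjustment and 0 called by DESeq2.

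Lipid handling genes of the LXR and PPAR pathways fell in part: 7 of 22 tested were lower, 1 was higher and 14 were not called (median -0.96), against 2.7% lower among all tested genes. Lpl, lipoprotein lipase, had 65.0, 102 and 69.5 CPM with LPS, against 854, 799 and 674 CPM untreated (-3.30 ± 0.44, adjusted p = 2.59e-05). Pparg, the nuclear receptor of lipid-storing cells and alveolar macrophages, had 0.512, 0.539 and 1.96 CPM with LPS, against 30.0, 30.5 and 33.7 CPM untreated (-5.13 ± 0.97, adjusted p = 0.000881). Its 3 untreated libraries stood close together, and its LPS libraries held 1, 1 and 2 counts. The lipid droplet coat gene Plin2 had 108, 183 and 185 CPM with LPS, against 665, 635 and 382 CPM untreated (-1.83 ± 0.35, adjusted p = 0.00106). The lysosomal lipase gene Lipa had 595, 224 and 227 CPM with LPS, against 1648, 1886 and 1500.5 CPM untreated (-2.27 ± 0.44, adjusted p = 0.00112). Nr1h3, which encodes LXR-alpha, was the member that rose, with 602, 484 and 352 CPM with LPS, against 38.6, 50.4 and 26.2 CPM untreated (3.58 ± 0.59, adjusted p = 0.000201). Cholesterol synthesis genes gave 1 higher (Idi1) and 1 lower (Stard4) of 23 (median 0.12). That is 4.35% each way, against 5.82% higher and 2.7% lower among all tested genes. Both calls were lost on leaving out 1 library, Idi1 (without LPS replicates 4 and 6 or untreated replicates 4, 5 and 6, adjusted p from 0.066 to 0.18) and Stard4 (without LPS replicates 5 and 6 or untreated replicates 4, 5 and 6, adjusted p from 0.0715 to 0.207).

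Of 26 lysosome genes 2 rose (7.69%, against 5.82% of all tested genes) and 6 fell (23.1%, against 2.7%), with a median of -0.09. Ctsc, cathepsin C, which activates serine proteases in granules, had 926, 789 and 847 CPM with LPS, against 80.6, 102 and 56.1 CPM untreated, with all libraries of a group close together (3.39 ± 0.34, adjusted p = 1.01e-06). Ctsl, cathepsin L, had 80.9, 90.5 and 84.1 CPM with LPS, against 392, 289.8 and 269 CPM untreated (-1.90 ± 0.43, adjusted p = 0.00424). The proton pump subunit gene Atp6v0d2 had 10.2, 11.3 and 13.7 CPM with LPS, against 131, 107 and 109 CPM untreated (-3.31 ± 0.73, adjusted p = 0.00332). Ctsd, cathepsin D, fell to 1018, 2431 and 2578 CPM with LPS, against 6419.6, 6991 and 3891 CPM untreated (-1.52 ± 0.41, adjusted p = 0.0182), a call that was lost without LPS replicate 4 or untreated replicates 4 and 5, adjusted p from 0.0618 to 0.0853. Among 18 NRF2 targets the cystine transporter gene Slc7a11 rose by 2.48 ± 0.51 (adjusted p = 0.00183), and Taldo1 fell (-1.46 ± 0.34, adjusted p = 0.00545). So did Ftl1 (-1.29 ± 0.39, adjusted p = 0.039), whose call was lost without LPS replicates 4 and 6 or untreated replicates 4, 5 and 6, adjusted p from 0.0645 to 0.142. In the unfolded protein and integrated stress response list 3 of 23 rose (Ppp1r15a, Chac1 and Ddit3) and 0 fell (median 0.60). The 3 calls were lost for Ppp1r15a (without LPS replicates 5 and 6 or untreated replicates 4, 5 and 6, adjusted p from 0.0622 to 0.139), for Chac1 (without LPS replicates 5 and 6 or untreated replicates 5 and 6, adjusted p from 0.0654 to 0.227) and for Ddit3 (without LPS replicate 5 or untreated replicates 4, 5 and 6, adjusted p from 0.0827 to 0.305).

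Proliferation genes fell in part, 8 of 30 tested with 0 higher (median -1.43), and 5 fell without LPS replicate 5 or untreated replicate 4. Before adjustment 1 member was higher at a p below 0.05, and DESeq2 called 0 higher. Stmn1, a microtubule regulator, had 0.512, 4.31 and 0 CPM with LPS, against 27.6, 23.8 and 15.0 CPM untreated (-3.68 ± 0.63, adjusted p = 0.000296). Ccna2, cyclin A, had 6.66, 1.08 and 3.91 CPM with LPS, against 27.3, 27.1 and 29.9 CPM untreated (-2.83 ± 0.65, adjusted p = 0.00518). Mki67, the usual proliferation marker, overlapped between the groups, with 28.2, 10.2 and 16.6 CPM with LPS, against 26.5, 25.8 and 18.7 CPM untreated (adjusted p = 0.789). Of 16 genes of the BCL2 family 5 rose and 0 fell (median 0.62), namely Bcl2a1a, Bcl2a1b and Bcl2a1d, near-identical prosurvival genes whose reads may be shared, Cflar, an inhibitor of caspase-8, and Pmaip1, which encodes the death-promoting protein NOXA. Bcl2a1d had 25.6, 131 and 64.6 CPM with LPS, against 1.34, 1.55 and 3.74 CPM untreated (5.52 ± 0.81, adjusted p = 5.97e-05), Cflar rose by 3.10 ± 0.53 and Pmaip1 by 2.43 ± 0.53. Bcl2a1b lost its call without LPS replicate 5 or untreated replicates 4 and 5, adjusted p from 0.06 to 0.0687. Of 33 ribosomal protein genes edgeR called 0 (median -0.41), with 3 below 0.05 before adjustment and 1 called by DESeq2.

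The largest fitted increases were in genes without any count in the untreated libraries, where only a lower bound can be given, set against 3 counts over the untreated group. Sprr2d, a small proline-rich protein best known from skin, had 74.2, 231 and 139.9 CPM with LPS, at least 389-fold higher, with reads that Sprr2e may share. The interferon-induced GTPase gene Tgtp1 had 152, 155 and 64.6 CPM, at least 354-fold higher, with its copy Tgtp2 as another source. Slfn4, a Schlafen family gene of myeloid cells, had 88.1, 56.0 and 66.5 CPM (at least 187-fold). Dnase1l3, a DNase that digests chromatin on microparticles, had 37.4, 58.2 and 62.6 CPM (at least 133-fold), Il2ra, the alpha chain of the interleukin-2 receptor, had 17.9, 66.3 and 46.0 CPM (at least 111-fold), and the formyl peptide receptor gene Fpr1 had 19.97, 62.5 and 42.1 CPM (at least 108-fold). Among genes with counts in both groups, Cd38, the NAD-consuming ectoenzyme, had 178, 147 and 224 CPM with LPS, against 0.536, 3.10 and 3.74 CPM untreated (6.52 ± 0.85, adjusted p = 2.36e-05). Adora2a, the adenosine receptor that raises cyclic AMP, had 158, 429 and 318 CPM with LPS, against 5.63, 9.30 and 7.48 CPM untreated (5.33 ± 0.51, adjusted p = 1.01e-06). Pde4b, which breaks cyclic AMP down, had 133, 189.6 and 247 CPM with LPS, against 11.3, 8.01 and 3.74 CPM untreated (4.42 ± 0.48, adjusted p = 2.45e-06).

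At the other end, the organic anion transporter gene Slco2b1 had no count with LPS and 20.6, 14.7 and 29.9 CPM untreated, at least 29.1-fold lower, and Zfyve28 had none with LPS and 21.2, 28.7 and 3.74 CPM untreated, at least 39.1-fold lower. Nptx1, a neuronal pentraxin gene, had 0, 1.62 and 0.978 CPM with LPS, against 264, 308 and 307 CPM untreated (-8.42 ± 1.81, adjusted p = 0.00494). The microtubule minus-end gene Camsap3 had 0, 0.539 and 0 CPM with LPS, against 38.3, 47.5 and 41.2 CPM untreated, 207-fold lower (95% counting interval 37.0 to 8218). Nrp1, neuropilin-1, a coreceptor of semaphorins and VEGF, had 4.61, 5.39 and 1.96 CPM with LPS, against 107, 116 and 105 CPM untreated. Its untreated libraries differed by little and its LPS libraries were all lower, at -4.70 ± 0.46 (adjusted p = 1.01e-06). Slc37a2, a sugar phosphate exchanger of macrophages, had 132, 63.6 and 61.6 CPM with LPS, against 1294, 1605 and 1306 CPM untreated (-4.03 ± 0.50, adjusted p = 1.09e-05). C5ar1, the receptor of complement C5a, had 25.6, 14.0 and 20.5 CPM with LPS, against 296, 287 and 131 CPM untreated (-3.59 ± 0.44, adjusted p = 1.09e-05).

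The second LPS comparison, with PGPC in both groups, shares no library with the first, though both used the same spread estimate per gene. It called 827 genes (6.64%), 552 higher with LPS (4.43%) and 275 lower (2.21%). Of the 725 genes higher with LPS alone, 711 had the same sign there, 412 were called the same way and 0 the opposite way; the 412 are 56.8% of the first list and 74.6% of the 552. Of the 337 lower genes 315 had the same sign, 103 were called the same way and 0 the opposite way, which are 30.6% of the first list and 37.5% of the 275. Over all tested genes 69.4% had the same sign. The PGPC group had 2 libraries, and leaving out replicate 4 or 5 of it left 166 or 293 calls. Ribosomal RNA locus counts took 52.0 and 60.9% of these 2 libraries, against 22.4 to 32.9% with LPS and PGPC. PGPC replicate 5 held 969959 counts in all. What part this had in the calls was not tested.

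Ccl5 had 838, 1586 and 2767 CPM with LPS and PGPC, against 29.0 and 39.6 CPM with PGPC (5.68 ± 0.60, adjusted p = 1.14e-05). Irf7 had 6601, 2524 and 2339.9 CPM with LPS and PGPC, against 19.2 and 82.7 CPM with PGPC (6.29 ± 0.85, adjusted p = 0.000112). Cd274 had 486, 494 and 575 CPM with LPS and PGPC, against 16.98 and 24.1 CPM with PGPC (4.69 ± 0.63, adjusted p = 0.000108). In all 3 the groups did not overlap. Ctsc had 359, 343 and 315 CPM with LPS and PGPC, against 50.4 and 43.1 CPM with PGPC (2.85 ± 0.39, adjusted p = 0.000131), and Nptx1 had no count with LPS and PGPC, against 190.2 and 108 CPM with PGPC. Several genes called with LPS alone were not called here. Pparg had 14.1, 14.1 and 15.96 CPM with LPS and PGPC, against 20.8 and 10.3 CPM with PGPC (-0.13 ± 0.80, adjusted p = 0.966), and its LPS and PGPC libraries overlapped with the PGPC ones. Ccr2 had 21.9, 20.5 and 10.5 CPM with LPS and PGPC, against 15.3 and 22.4 CPM with PGPC (-0.06 ± 0.63, adjusted p = 0.984). Clec7a had 33.9, 48.3 and 44.4 CPM with LPS and PGPC, against 43.3 and 51.7 CPM with PGPC (-0.16 ± 0.43, adjusted p = 0.89). Plin2 had 924, 981 and 970.0 CPM with LPS and PGPC, against 624 and 582 CPM with PGPC (0.67 ± 0.39, adjusted p = 0.348). Ccr2 and Clec7a overlapped between the groups, and every library of Plin2 with LPS and PGPC lay above those with PGPC. Nlrp3, which rose with LPS alone, had 56.5, 25.4 and 35.3 CPM with LPS and PGPC, against 26.8 and 46.5 CPM with PGPC (0.13 ± 0.60, adjusted p = 0.95). Nrp1 was called lower, with 74.3, 54.4 and 32.8 CPM with LPS and PGPC, against 127 and 186 CPM with PGPC (-1.53 ± 0.41, adjusted p = 0.0222), a call lost without LPS with PGPC replicates 5 and 6 or PGPC replicates 4 and 5, adjusted p from 0.0707 to 0.255. Whether the LPS effect on these genes differs with and without PGPC was not tested.

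**Figure D4:**
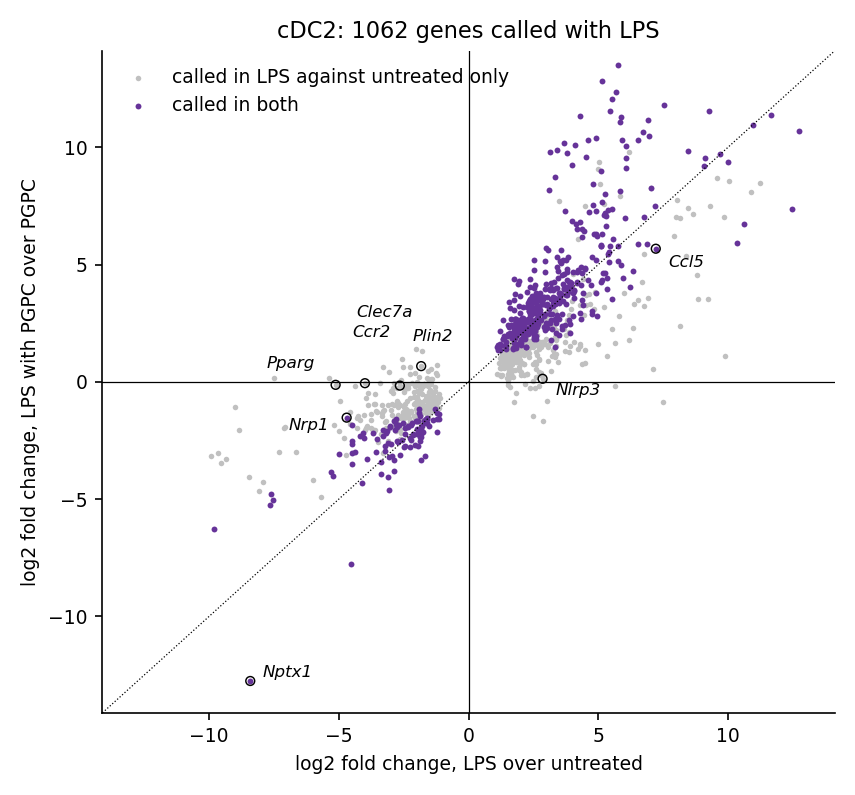
Log2 fold changes of the 1062 genes called with LPS in cDC2, with LPS over untreated on the x axis and LPS with PGPC over PGPC on the y axis; violet points (515) were called the same way in both, grey points in the first only, and the dotted line marks equal values. Violet points lie in the upper right and lower left corners of the plane only, since 0 genes were called in opposite directions, and Pparg, Ccr2, Clec7a, Plin2 and Nlrp3 lie near 0 on the y axis.

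LPS was also given to FLT3LcDC1, where edgeR called 2235 genes (17.9%), 1069 higher (8.58%) and 1166 lower (9.36%). Of the 725 genes higher in cDC2, 444 were called higher in cDC1 and 7 lower, and of the 337 lower genes 179 were called lower and 4 higher. The test of the difference itself, the response of cDC2 minus that of cDC1, called 166 genes (1.33%), 124 above 0 (0.995%) and 42 below (0.337%). Of the 124, 48 were called in cDC2 itself, 44 higher and 4 lower, and 74 were not called in cDC2 and fell in cDC1. Of the 42, 21 were called in cDC2, 8 higher and 13 lower, and the other 21 rose in cDC1 without a call in cDC2. The number rested on few libraries: it was 442 without LPS replicate 4 of cDC2 and between 75 and 169 without any other 1 of the 12 libraries, and 6 with all 36 libraries in the fit. Untreated cDC1 libraries carried 40.7 to 71.9% ribosomal RNA locus counts and monocyte or macrophage genes that summed to 2418 to 6350 CPM. Their plasmacytoid dendritic cell genes summed to 692 to 877 CPM and their neutrophil or granulocyte precursor genes to 54.7 to 233 CPM. In cDC1, of 13 tested plasmacytoid genes, which include Bst2, LPS lowered 5 (38.5%) and raised 1. Of 9 tested granulocyte precursor genes it lowered 6 (66.7%) and raised 0. Of 18 tested monocyte or macrophage genes it lowered 14 (77.8%, against 9.36% of all tested genes) and raised 2. For those 18 the difference had a median of 2.56, with 3 called above 0 and 0 below. What part these had in the difference was not tested.

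Nrp1 fell in cDC2, whereas cDC1 had 55.6, 36.6 and 35.3 CPM with LPS, against 64.2, 73.4 and 70.7 CPM untreated (-0.70 ± 0.37, adjusted p = 0.196), and the difference was -4.0 ± 0.58 (adjusted p = 0.00103). Net1 rose in cDC2 and fell in cDC1, with 62.0, 55.5 and 55.3 CPM with LPS, against 133, 104 and 175 CPM untreated (-1.25 ± 0.38; difference 3.85 ± 0.57, adjusted p = 0.00103). Flt3, the receptor of the growth factor, did likewise: cDC2 had 42.5, 47.4 and 80.2 CPM with LPS, against 14.5, 15.5 and 7.48 CPM untreated (2.04 ± 0.40), and cDC1 had 109.5, 105 and 113 CPM with LPS, against 473, 273 and 309 CPM untreated (-1.68 ± 0.37; difference 3.72 ± 0.55, adjusted p = 0.00103). Ctsc and Cd38 rose in cDC2 by 3.39 ± 0.34 and 6.52 ± 0.85, against 0.47 ± 0.31 and 0.53 ± 0.69 in cDC1, and both differences were called (adjusted p = 0.00128 and 0.00689).

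Among the 74 genes without a call in cDC2 were Col1a1, a collagen gene, and Sparc, which encodes a matrix protein, both typical of stromal cells and chosen after their values were seen. Col1a1 had 379, 38.2 and 118 CPM with LPS, against 133, 147 and 67.4 CPM untreated in cDC2 (0.59 ± 0.88, adjusted p = 0.805), and 0, 4.13 and 5.004 CPM with LPS, against 111, 32.5 and 170.0 CPM untreated in cDC1 (-5.35 ± 1.13). Sparc had 23.6, 80.8 and 74.4 CPM with LPS, against 89.2, 86.0 and 48.6 CPM untreated in cDC2 (-0.37 ± 0.74, adjusted p = 0.863), and 0, 1.18 and 1.77 CPM with LPS, against 33.4, 103 and 210.2 CPM untreated in cDC1 (-7.37 ± 1.06). Both groups of cDC2 overlapped, and the LPS libraries of cDC1 lay below its untreated ones. The differences were 5.94 ± 1.42 (adjusted p = 0.0326) and 7.01 ± 1.27 (adjusted p = 0.00764), and that for Col1a1 lost its call without cDC1 LPS replicates 1 and 2 or cDC1 untreated replicate 3 or cDC2 LPS replicate 4 or cDC2 untreated replicates 4, 5 and 6, adjusted p from 0.0637 to 0.0896. What part stromal cells had in the difference between the cell types was not tested.

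The difference was above 0 for 4 of 23 class I presentation genes (17.4%, median 1.49), against 0.995% of all tested genes, and for 1 of 43 interferon-stimulated genes (2.33%), whose median was -0.41. H2-T23, which encodes the class Ib molecule Qa-1, had 304, 337 and 254 CPM with LPS, against 52.0, 49.3 and 15.0 CPM untreated in cDC2, and 134, 126 and 155 CPM with LPS, against 69.3, 285 and 118 CPM untreated in cDC1 (difference 3.03 ± 0.60, adjusted p = 0.0112). Psmb9 had 79.9, 89.8 and 100.4 CPM with LPS, against 70.1, 93.9 and 76.7 CPM untreated in cDC1, so its untreated cDC1 libraries overlapped with the LPS libraries of cDC2 (difference 2.62 ± 0.56, adjusted p = 0.0152). Bst2 (tetherin) rose by 3.31 ± 0.56 in cDC2, against -0.47 ± 0.51 in cDC1 (difference 3.78 ± 0.75, adjusted p = 0.0112), and Irf1 by 2.51 ± 0.45, against -0.12 ± 0.41 (difference 2.62 ± 0.60, adjusted p = 0.0233). The difference for Psmb9 lost its call without cDC1 LPS replicate 1 or cDC2 LPS replicate 5 or cDC2 untreated replicate 4, adjusted p from 0.0509 to 0.0627. That for Irf1 lost it without cDC1 LPS replicates 1 and 2 or cDC1 untreated replicate 2 or cDC2 LPS replicates 5 and 6 or cDC2 untreated replicates 5 and 6, adjusted p from 0.0509 to 0.0739.

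Tnf, Ccl22 and Tlr1 rose in both cell types but less in cDC2, with 3.22 ± 0.52, 5.13 ± 0.55 and 3.29 ± 0.54 in cDC2, against 6.15 ± 0.59, 8.11 ± 0.63 and 6.35 ± 0.61 in cDC1 (adjusted p of the difference 0.0357, 0.0263 and 0.0326). The difference for Tnf lost its call without cDC1 LPS replicates 1 and 2 or cDC1 untreated replicates 1 and 2 or cDC2 LPS replicate 6 or cDC2 untreated replicates 4 and 5, adjusted p from 0.0586 to 0.185. That for Ccl22 lost it without cDC1 LPS replicate 1 or cDC1 untreated replicates 1 and 2 or cDC2 LPS replicate 6 or cDC2 untreated replicates 4 and 5, adjusted p from 0.0545 to 0.0819. Tlr1 lost it without cDC1 LPS replicates 1 and 2 or cDC1 untreated replicate 2 or cDC2 LPS replicates 5 and 6 or cDC2 untreated replicates 4, 5 and 6, adjusted p from 0.0505 to 0.114. Lipa fell in cDC2 by 2.27 on the log2 scale, while in cDC1 it had a log2 fold change of 0.77 ± 0.42, above 0 and not called (adjusted p = 0.214; difference -3.03 ± 0.61, adjusted p = 0.0117).

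**Figure D5:**
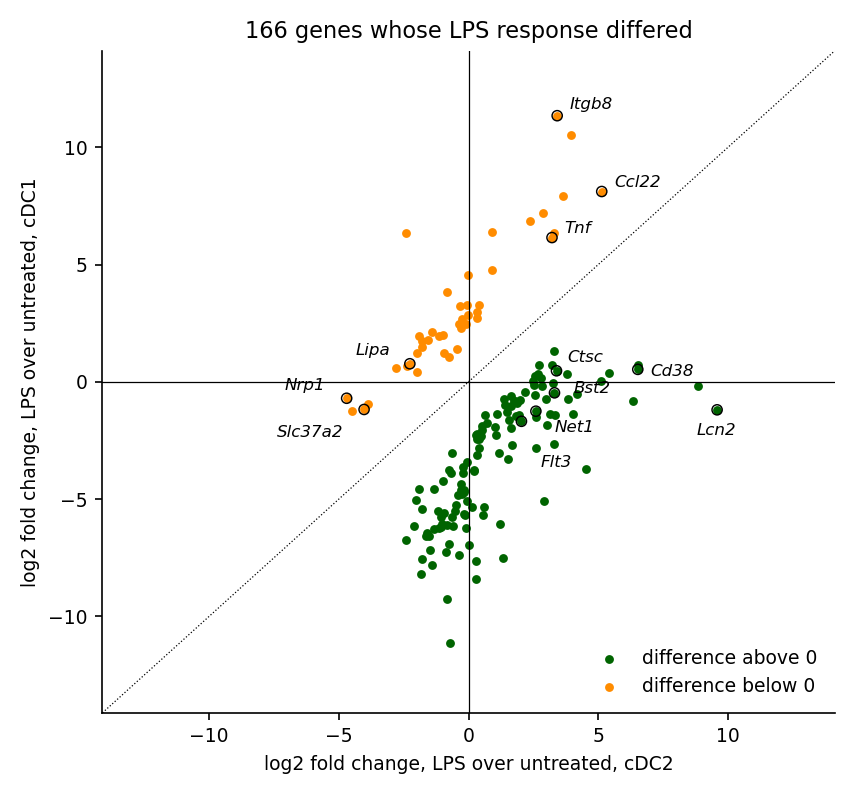
Log2 fold changes (LPS over untreated) in cDC2 on the x axis and in cDC1 on the y axis for the 166 genes whose responses differed by the interaction test; green points had the higher value in cDC2 (124), orange points the lower (42), and the dotted line marks equal responses. Many green points lie near 0 in cDC2 and below 0 in cDC1, and Net1 and Flt3 have opposite signs in the 2 cell types.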

How the data were processed

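RNA from mouse bone marrow-derived FLT3LcDC2 and FLT3LcDC1 was sequenced in 36 libraries. Per the labels' protocols, Smart-Seq2 cDNA became Nextera XT libraries that a NextSeq read from both ends. Per the submitters' processing notes, the authors used bcl2fastq 2.2 and RSEM with GRCm38, and the deposited values are RSEM's expected counts per gene symbol. The labels name no aligner, annotation release or RSEM version. This table lists 53299 symbols and is not scaled to a common total. Of its nonzero values 21.0% were not whole, and all were rounded before testing.

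Groups came from the title and treatment labels. The 12 alum libraries, with few genes detected, and replicate 6 of FLT3LcDC2 with PGPC (3805 counts) were left out, so 23 libraries in 8 groups shared 1 spread estimate per gene. filterByExpr (at least 10 counts, total of at least 15) left 12463 genes, and TMM scaling with edgeR's robust quasi-likelihood test was used (edgeR 4.0.16, limma 3.58.1, R 4.3.3), with Benjamini-Hochberg adjustment and a threshold of 0.05. The procedure was tested on simulated data. Standard errors are the size of the log2 fold change over the root of its F statistic. Folds against a group without counts are bounds at 3 counts over that group, and folds against 1 to 3 counts carry an exact conditional 95% interval. Reads carry no molecular identifiers, so both cover counting error only. The labels call the replicates biological without naming cultures or animals, so p-values measure the spread between these libraries. No 2 libraries of a group agreed within sampling noise.

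Gene lists, members and comparisons were chosen with earlier results of these data known. The rule for named genes takes, among calls without overlap between groups whose higher group averaged 5 CPM or more, the 12 most raised and the 12 most lowered on the log2 scale. For the cDC2 and cDC1 difference it takes 5 each way, overlap allowed. It leaves out predicted gene models and ribosomal RNA or mitochondrial genes. Added are up to 4 members per process list by adjusted p and a panel of cytokine, maturation and cell identity genes. Not all of these are named here, a few genes are not reported, and other genes in the text were chosen after their values were seen. Positions are from GENCODE M21 on GRCm38, where 52919 symbols were found, and promoter windows are from RefSeq on GRCm38.p6. Reads carry no strand, so overlapping and antisense genes cannot be told apart, and near-identical genes may share reads. Alternatives were RLE size factors, no filter on low counts, DESeq2 1.42.0, the replicate number as a block, all 36 libraries, only the groups compared, and each library left out in turn.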

Additional observations from a re-analysis of the deposited data

Results flagged for a closer look

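For 15 genes named in the text, the log2 response to LPS differed between cDC2 and cDC1 by edgeR's test of the difference itself (cDC2 minus cDC1). The response was higher in cDC2 for Sparc (7.01), Cd38 (5.99), Col1a1 (5.94), Net1 (3.85), Bst2 (3.78), Flt3 (3.72), H2-T23 (3.03), Ctsc (2.92), Irf1 (2.62) and Psmb9 (2.62). It was lower in cDC2 for Nrp1 (-4.0), Tlr1 (-3.05), Lipa (-3.03), Ccl22 (-2.98) and Tnf (-2.94). Of the 15 differences, 9 kept their call without each of the 12 libraries and 6 lost it without at least 1, and with all 36 libraries in the fit 0 of the 15 were called.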

How the results depend on the processing

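The LPS response of cDC2 was called in 1062 genes, and in 1017 to 1313 under RLE size factors, no filter, the replicate block, only its own 6 libraries and DESeq2. It was called in 232 when all 36 libraries were filtered, scaled and fitted together. Leaving out 1 library gave 657 to 985. With PGPC in both groups the number was 827, or 1245 with DESeq2 and 102 with all 36 libraries, where 82.4% of calls were higher, against 66.7% of the 827; it was 166 to 694 without 1 library. The difference between cDC2 and cDC1 had 166 calls, 425 without a filter, 428 with DESeq2, 6 with all 36 libraries and 75 to 442 without 1 library, the highest without LPS replicate 4 of cDC2. Genes called both in the report and under one of these settings had the same sign. RLE scaling moved the genome-wide median log2 fold change by -0.007 with LPS alone, -0.097 with PGPC and 0.021 for the difference, and the 36 libraries moved it by 0.137 with PGPC.

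Same-numbered LPS and untreated libraries correlated at -0.025, -0.050 and 0.017 in their deviations, and LPS replicate 4 correlated best with untreated replicate 6. Whether the replicate number pairs the libraries cannot be decided from these values, because the LPS libraries differed along transcript length and untreated replicate 6 was shallow. With the number as a replicate block 1017, 757 and 163 genes were called.

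Of 140 genes named with a call for LPS alone, 115 kept it without each library, 25 lost it without at least 1, 9 lost it in another setting other than the 36 libraries, and 47 kept it there. Changes of sign were found only for values without a call. With LPS alone, leaving out 1 library gave log2 fold changes of -0.15 to 0.91 for Itgam (below 0 without LPS replicate 4), -0.10 to 1.18 for Irf4 (below 0 without LPS replicate 5) and -0.13 to 0.33 for Irf8 (below 0 without LPS or untreated replicate 4). With PGPC in both groups they were -0.32 to 0.22 for Ccr2 (above 0 without LPS with PGPC replicate 6 or PGPC replicate 5), -0.24 to 0.56 for Nlrp3 (below 0 without replicate 4 of LPS with PGPC or of PGPC) and -0.49 to 0.53 for Pparg (above 0 without PGPC replicate 4). Nlrp3 was also below 0 there with RLE size factors (-0.01) and DESeq2 (-0.01), and Ccr2 above 0 without a filter (0.04), with the block (0.09) and with 36 libraries (0.04). Depth limited genes of low level most in untreated replicate 6.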

Other observations

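The untreated libraries differed among themselves in some of the same gene groups. Untreated replicate 5 was the highest of the 3 untreated libraries for 36.1% of all tested genes, for all 43 interferon-stimulated genes, for 13 of 18 cytokine genes (72.2%), for 16 of 24 genes of glycolysis and hypoxia (66.7%) and for 15 of 23 genes of LPS sensing (65.2%). The share was 23.5% for MHC class II genes (4 of 17), 17.9% for mitochondrial respiratory subunits (5 of 28) and 9.09% for ribosomal protein genes (3 of 33). These are counts from 1 library, given as a description with no test.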
